A study of Mus musculus with 8 samples.

Results

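The myostatin, activin and follistatin axis was followed here through 10 genes, chosen by name: the ligand genes Mstn, Gdf11 and Inhba, the follistatin family genes Fst, Fstl3 and Fstl1, the type II receptor genes Acvr2a and Acvr2b, and the type I receptor genes Acvr1b and Tgfbr1. Each had 1 row in both deposited tables, which list 52338 and 52139 genes. The study asked how gene expression changes when C2C12 cells, a mouse myoblast line grown for its ability to form myotubes in culture, are given ginsenoside Re, a triterpenoid saponin, or ginseng berries concentrate (GBC). All 8 libraries were labelled as wild-type C2C12. In 1 table, called the Re table here, there were 3 libraries of cells given DMSO, the solvent control, and 3 of cells given Re. The other, the GBC table, held 1 DMSO library and 1 GBC library. Doses and exposure times were not given in the sources used here, and nothing said whether replicates were separate cultures, so p-values measure the spread between these libraries.

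Myostatin, GDF11 and activin A, the dimer of the Inhba product, are secreted ligands of the TGF-β superfamily. They bind a type II receptor (ActRIIA or ActRIIB), which recruits and phosphorylates a type I receptor (ALK4, from Acvr1b, or ALK5, from Tgfbr1). That receptor phosphorylates Smad2 and Smad3, which enter the nucleus with Smad4. In skeletal muscle this signal limits fibre growth and holds back myoblast differentiation. Follistatin (Fst) and follistatin-like 3 (Fstl3) wrap around the ligands and keep them from their receptors. Follistatin-like 1 (Fstl1) is a secreted glycoprotein that carries a follistatin domain and has roles apart from these ligands.

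Upstream sequence was available for 9 of the 10 genes, in RefSeq's table on GRCm38.p6. It is not the GRCm39 build that the submitters' processing notes name, so the positions below refer to GRCm38.p6. The 120 bases before the annotated start are shown for the ligand gene listed at 0 throughout and for the ligand gene with the highest level in the Re table. Capitals mark the E-box CANNTG, the motif bound by MyoD and related factors, which reads the same way on both strands.
Mstn, chr1:53061520-53061639, plus strand: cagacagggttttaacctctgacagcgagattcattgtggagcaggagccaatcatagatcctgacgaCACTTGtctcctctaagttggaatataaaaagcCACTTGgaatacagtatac
Inhba, chr13:16011731-16011850, plus strand: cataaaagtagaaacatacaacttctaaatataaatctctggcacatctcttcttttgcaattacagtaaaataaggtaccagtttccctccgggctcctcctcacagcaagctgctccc
Within 250 bases before the start, Mstn held 4 E-boxes and Inhba 0. Of the other genes, Fstl3 held 3, Gdf11 and Acvr1b 1 each, and Acvr2a, Acvr2b and Fstl1 0. Tgfbr1 held 0 or 1, depending on the start site. Of 32851 promoters in that table, 66.2% held at least 1 over the same length. The TATA motif TATAAA, searched on both strands, was found 1 time in each of the Mstn and Inhba windows and in 12.4% of all promoters. Such matches describe letters and were not tested for binding.

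The libraries differed in ways that touch every value below. Listed TPM added up to between 642180 (DMSO replicate 2) and 743269 (Re replicate 3) in the Re table, but only to 403442 (DMSO) and 479938 (GBC) in the GBC table. TPM is expressed per gene length and per library, so levels can be compared between genes, but it keeps no depth. The median gene was 0.105 higher in Re than in DMSO and 0.320 higher in GBC than in DMSO, on the log2(TPM + 1) scale. Differences are therefore also given after median-of-ratios scaling, which brings the median near 0. The myoblast markers Myod1, Myf5, Cdh15 and Des were at 9.95 TPM or more in all 6 libraries of the Re table, and Pax7 was at 0.13 TPM or less. In both libraries of the GBC table Myod1, Myf5, Cdh15 and Pax7 were listed at 0 and Des was at 1.92 and 1.59 TPM. Both libraries carry the same C2C12 label as the Re table, so label and myoblast markers do not match there. In bulk RNA, fewer cells of a type and less RNA per cell cannot be told apart, and which cells these libraries held was not tested.

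In the Re table Fstl1 was the highest member, at 162 TPM over the 6 libraries, with a lowest value of 151 and a highest of 171. Inhba followed at 35 TPM and Fstl3 at 27.1 TPM, and Inhba was higher than Fstl3 in 6 of 6 libraries although their ranges overlapped. Gdf11 came next at 14.7 TPM. Fst, at 10.4 TPM, and Tgfbr1, at 9.66 TPM, could not be ordered beyond their spread, since Fst was higher in 4 of 6 libraries. Acvr2a was at 4.76 TPM and Acvr1b at 3.44 TPM, with overlapping ranges and Acvr2a higher in 6 of 6 libraries. Acvr2b, at 0.665 TPM, and Mstn closed the order. Inhba and Gdf11 were the member ligand genes with a listed level above 0, and Tgfbr1 and Acvr2a the higher of the member type I and type II receptor transcripts. Inhbb, the activin βB subunit gene of the pathway list, was at 7.07 to 8.60 TPM in the 6 libraries.

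**Figure D1:**
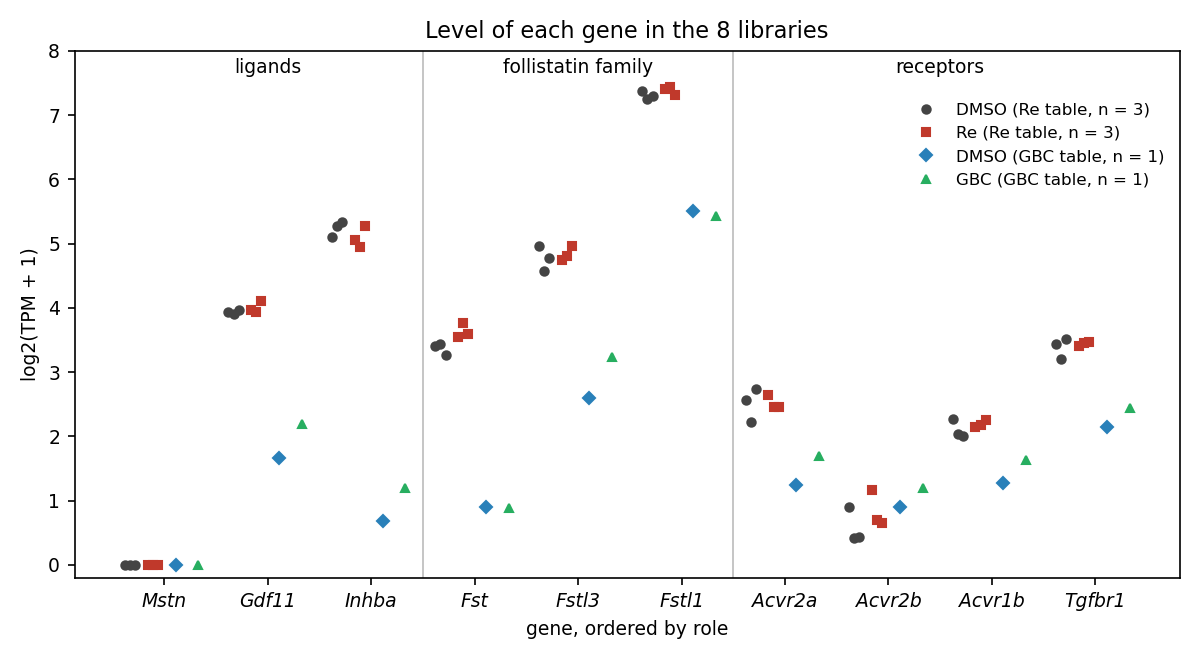
Level of each of the 10 genes, as log2(TPM + 1), in the 3 DMSO and 3 Re libraries of the Re table and the 2 libraries of the GBC table, 1 point a library, with genes ordered by role. Mstn lies at 0 in all 8 libraries, Fstl1 is the highest gene in each, and Inhba shows the widest gap between the tables.

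Among the ligands, Mstn, which encodes myostatin, was listed at 0 in all 8 libraries. A listed 0 need not mean no transcript in these tables. For example, mt-Co2, a mitochondrially encoded subunit of cytochrome c oxidase, was also listed at 0 in the 3 DMSO libraries of the Re table. It was at 0 in Re replicate 2 too, and at 39.8 and 112 TPM in Re replicates 1 and 3. Gdf11, the closest relative of myostatin, was at 14.3, 13.9 and 14.5 TPM in DMSO replicates 1 to 3 and at 14.6, 14.4 and 16.3 TPM in Re. Its groups overlapped, with Re replicate 3 above the other 5 libraries. The difference, Re minus DMSO, was 0.08 (95% confidence interval -0.15 to 0.30; adjusted p 0.781 in limma). Inhba, the activin βA subunit gene, was at 33.4, 37.5 and 39.2 TPM in DMSO and at 32.1, 30 and 37.6 TPM in Re. Re replicates 1 and 2 lay below every DMSO library and Re replicate 3 lay among them. Inhba was the only one of the 8 members tested with a lower mean in Re as deposited, by -0.14 (-0.40 to 0.12; adjusted p 0.698 in limma), and it was at -0.25 (-0.52 to 0.02; unadjusted p 0.0628) after median-of-ratios scaling. Its value moved from -0.23 without Re replicate 3 to -0.07 without Re replicate 2. At 0.25 below the median of all genes, Inhba was the member farthest from that median.

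Among the antagonists, Fst was at 9.58, 9.89 and 8.59 TPM in DMSO and at 10.7, 12.6 and 11.1 TPM in Re. Every Re library lay above every DMSO library. Fst was the only member so separated, 1 of 8 tested, and of 11967 genes tested 13.7% were separated upward in the same way. The difference was 0.27 with an SE of 0.11 and an unadjusted p of 0.0462 and an adjusted p of 0.687 in limma, and 6.23% of all genes had an unadjusted p under 0.05. After median-of-ratios scaling it was 0.16 (-0.11 to 0.44), the groups overlapped, and 5.29% of all genes were separated upward. Fstl3 was at 30.1, 22.8 and 26.5 TPM in DMSO and at 25.9, 27.1 and 30.2 TPM in Re. The low value was DMSO replicate 2, and the difference of 0.07 (-0.21 to 0.35) was -0.03 without that library and -0.04 after scaling. Fstl1 was at 166, 151 and 157 TPM in DMSO and at 169, 171 and 158 TPM in Re, with overlapping groups. Its difference was 0.07 (-0.12 to 0.26), the narrowest interval among the members, and -0.04 after scaling.

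The receptor genes showed no difference larger than the spread between replicates. Tgfbr1, which encodes ALK5, a receptor shared with TGF-β itself, was at 9.85, 8.16 and 10.4 TPM in DMSO and at 9.53, 9.91 and 10.1 TPM in Re. The Re values lay inside the DMSO range, and the difference of 0.06 (-0.22 to 0.33) was -0.04 without DMSO replicate 2. Acvr1b, the ALK4 gene, was at 3.81, 3.08 and 3.04 TPM in DMSO and at 3.44, 3.51 and 3.76 TPM in Re, a difference of 0.09 (-0.24 to 0.42). Here too all Re values lay inside the DMSO range. Acvr2a was at 4.95, 3.67 and 5.65 TPM in DMSO and at 5.29, 4.47 and 4.51 TPM in Re, a difference of 0.01 (-0.37 to 0.39). That difference was -0.13 without DMSO replicate 2 and -0.08 after scaling. Acvr2b was at 0.86, 0.34 and 0.35 TPM in DMSO and at 1.24, 0.62 and 0.58 TPM in Re. DMSO replicate 1 and Re replicate 1 were the high library of their groups, the groups overlapped, and with a mean under 1 TPM the gene was not tested.

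In all, 8 of the 10 members passed the filter of a mean of 1 TPM, and 0 had an adjusted p under 0.05 in limma. Of all genes tested 0% did, while 1 member, Fst, and 745 genes had an unadjusted p under 0.05. The adjusted p of the 8 members ran from 0.687 to 0.98. As deposited 7 members had a higher mean in Re and 1 a lower, with a median of 0.072 beside 0.105 for all genes. After median-of-ratios scaling 2 were higher and 6 lower, with a median of -0.040. The signs of Gdf11, Fstl3, Fstl1, Acvr2a and Tgfbr1 thus followed the scaling, while those of Fst and Inhba did not, and Acvr1b was at 0.00 after it. The widest interval was that of Acvr2a, -0.37 to 0.39.

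**Figure D2:**
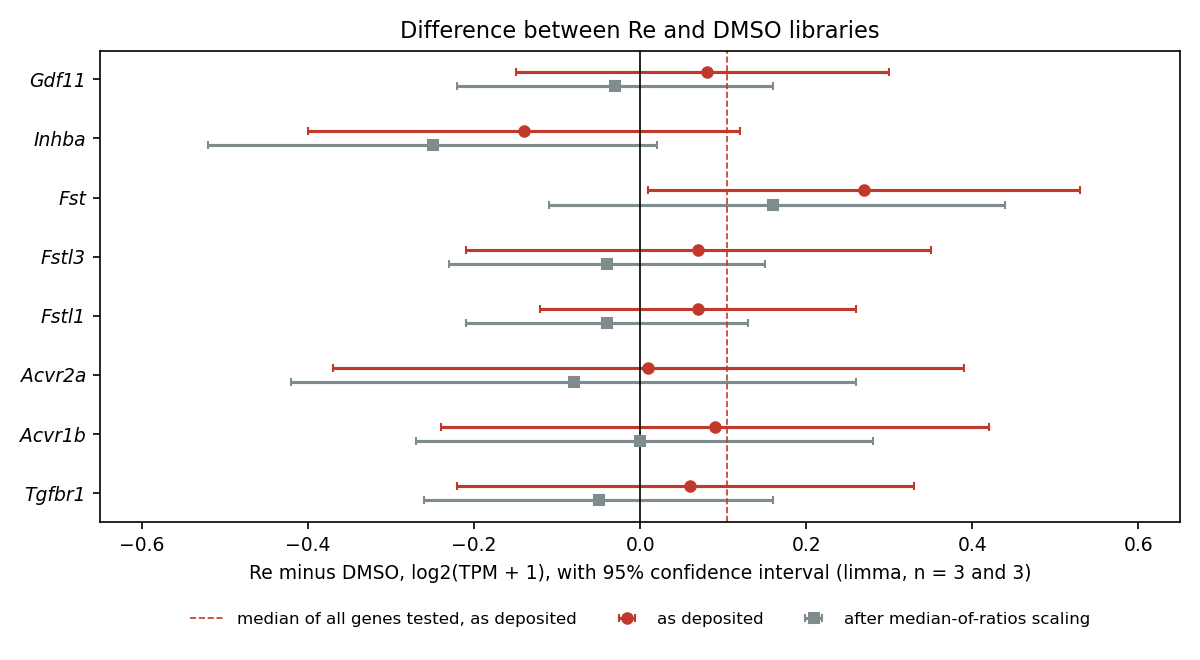
Difference between Re and DMSO libraries for the 8 members tested, in log2(TPM + 1), as deposited (circles) and after median-of-ratios scaling (squares), with 95% confidence intervals from limma (n = 3 and 3) and the median of all genes tested as a dashed line. As deposited, the interval of Fst, 0.01 to 0.53, is the only one that does not span 0, and after scaling every interval spans 0.

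Ratios within a library do not depend on its scaling. The antagonist transcripts Fst and Fstl3 made up 45.4%, 38.9% and 39.5% of the summed TPM of Fst, Fstl3, Mstn, Gdf11 and Inhba in DMSO and 43.9%, 47.2% and 43.4% in Re. DMSO replicate 1 lay among the Re libraries, so the groups overlapped, at 41.3% ± 3.63 in DMSO and 44.9% ± 2.07 in Re (SD, n = 3). With Fst as the only antagonist the share was 16.7%, 16.1% and 13.8% in DMSO and 18.6%, 22.1% and 17.1% in Re, without overlap, and 13.6% of genes were separated upward relative to the same ligand sum. For Fst and Fstl3 together, the difference of 3.59 percentage points was 2.38 without DMSO replicate 2 and 5.67 without DMSO replicate 1. The ratio of Fst to Inhba, chosen after the values were seen, was 0.287, 0.264 and 0.219 in DMSO and 0.333, 0.421 and 0.296 in Re. Each Re library had the higher ratio, with means of 0.257 ± 0.0346 and 0.35 ± 0.064 (SD, n = 3). Gdf11 to Inhba was likewise separated, at 0.371 to 0.427 in DMSO and 0.434 to 0.48 in Re, and the other 5 members tested overlapped in their ratio to Inhba. Of all genes, 17.2% had a ratio to Inhba that was separated upward. For Fst over any other gene the share was 12.2%. With 3 libraries against 3, an exact two-sided permutation test of 1 such ratio cannot give a p below 0.10.

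**Figure D3:**
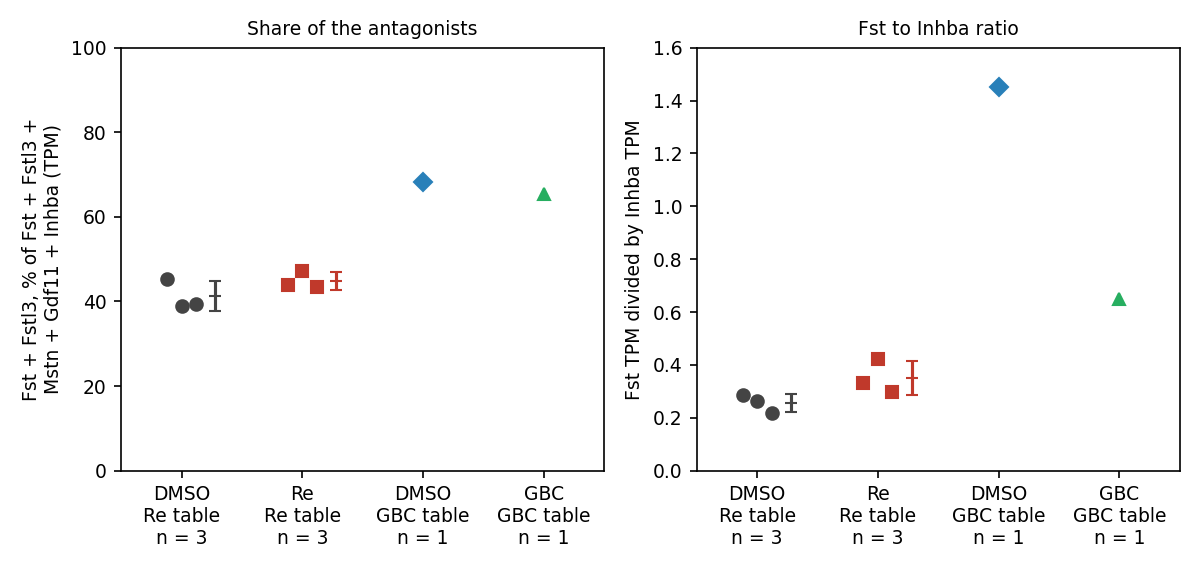
Left, Fst plus Fstl3 as a percentage of Fst, Fstl3, Mstn, Gdf11 and Inhba in TPM, and right, the ratio of Fst to Inhba, 1 point a library, with mean and SD bars beside the groups of 3. The share overlaps between DMSO and Re, while the ratio runs from 0.219 to 0.287 in DMSO and from 0.296 to 0.421 in Re; both GBC table libraries lie higher in each panel.

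The genes whose pattern over the 6 libraries of the Re table was most like that of Fst were Cog1, which encodes a Golgi tethering subunit, Cnpy4 and Aggf1, with Pearson's r of 0.997, 0.981 and 0.981. For Inhba they were Scnm1, Osgin1 and Dhx9, an RNA helicase gene, with r of 0.986, 0.984 and 0.982. These were picked as the highest of 7608 candidate genes, of which 76 reached an r of 0.9 with Fst and 62 with Inhba. The 6 points are shared by all genes, with their scaling and the group difference, so the values describe these libraries only.

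The rest of the pathway gave no call in Re. Of 36 further genes, 25 passed the filter, 18 with a higher and 7 with a lower mean in Re, and 0 had an adjusted p under 0.05 in limma. Their median was 0.078, or -0.030 after scaling, beside 0.105 and 0.000 for all genes. The signal transducer genes Smad2, Smad3 and Smad4 differed by 0.01, -0.07 and 0.14. Of the transcripts known to answer Smad2 and Smad3, Pmepa1, a feedback inhibitor gene, differed by 0.03 (-0.29 to 0.34) and Cdkn1a, the p21 cell cycle inhibitor gene, by -0.04 (-0.24 to 0.17). Smurf1, a ubiquitin ligase gene whose product removes Smads and receptors, was the only pathway gene with separated groups. It was at 25.9, 25.5 and 26.6 TPM in DMSO and at 23.6, 21.4 and 25.3 TPM in Re, lower in every Re library. Its difference was -0.15 (-0.37 to 0.07; adjusted p 0.687 in limma), and 1.27% of all genes were separated downward. After scaling its difference was -0.26 (-0.45 to -0.06; unadjusted p 0.0167 and adjusted p 0.961 in limma). On that scale 4.89% of all genes were separated downward, Tgfb2 among them.

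The other genes with the smallest p in that list were Tgfb3, Smad7, Tgfb1, Ltbp4 and Bmp1. The ligand gene Tgfb3 differed by 0.21 and the ligand gene Tgfb1 by -0.17. After median-of-ratios scaling Tgfb1 was at -0.28 (-0.54 to -0.01; unadjusted p 0.0432 and adjusted p 0.961 in limma), with overlapping groups, and as deposited it ran from -0.29 without Re replicate 3 to -0.10 without DMSO replicate 3. Smad7, the inhibitory Smad, differed by 0.16, Ltbp4, a latent TGF-β binding protein gene, by 0.17, and Bmp1, a protease that can free myostatin from its propeptide, by 0.14. The last 3 were 0.08, 0.05 and 0.01 without DMSO replicate 2, and Tgfb3 was 0.11. Among genes under the filter were the myostatin binder Wfikkn2, at 0.06 TPM or less, the tolloid protease gene Tll2 and the type I receptor gene Acvr1c, both listed at 0 in the 6 libraries.

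In the GBC table each group is 1 library, so differences have no replicate check and no test was made. Of the ligands, Gdf11 measured 2.16 TPM with DMSO and 3.57 TPM with GBC, 0.53 apart on the log2(TPM + 1) scale. Inhba measured 0.60 and 1.29 TPM, 0.52 apart. Among the antagonists the GBC library was higher in Fstl3, with 5.05 TPM in DMSO against 8.36 TPM, and this gap of 0.63 was the largest among the members as deposited. After median-of-ratios scaling Inhba, at 0.34, lay above Fstl3, at 0.31. Fst measured 0.87 and 0.84 TPM, and its difference was -0.02. For Fstl1 the values were 44.3 and 42.1 TPM and the difference -0.07. With the all-gene median of 0.320 taken out, Gdf11, Inhba and Fstl3 lay at 0.21, 0.20 and 0.31, and Fst and Fstl1 at -0.34 and -0.39. Only Fst and Fstl1 were lower in GBC as deposited, and after median-of-ratios scaling Tgfbr1 was too.

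The receptor genes were close to that median. Acvr2a was at 1.37 and 2.22 TPM, Acvr2b at 0.86 and 1.28 TPM, Acvr1b at 1.42 and 2.10 TPM, and Tgfbr1 at 3.45 and 4.41 TPM (DMSO first). Their differences were 0.44, 0.29, 0.36 and 0.28, or 0.21, 0.10, 0.12 and -0.02 after scaling. The 7 members at a mean of 1 TPM or more had a median of 0.357, and 0 of them reached a difference of 1. Of 10989 genes at that level, 4.32% reached it upward and 0.4% downward.

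As a yardstick, the largest difference between any 2 libraries of 1 group was taken for each gene from the 6 such pairs of the Re table. Of the 7 members, Gdf11, Fstl3 and Acvr1b exceeded their yardsticks of 0.17, 0.39 and 0.25, as 44.9% of all genes did. After scaling of the GBC table Gdf11, at 0.26, and Fstl1, at -0.44 against 0.13, exceeded theirs, as 26.4% of all genes did. The yardsticks themselves were kept as deposited and not scaled, so scaled differences are set beside unscaled ones there. The level of the members was lower in the GBC table, except for Acvr2b and for Mstn, listed at 0 in both tables. Spread at that lower level was not measured.

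**Figure D4:**
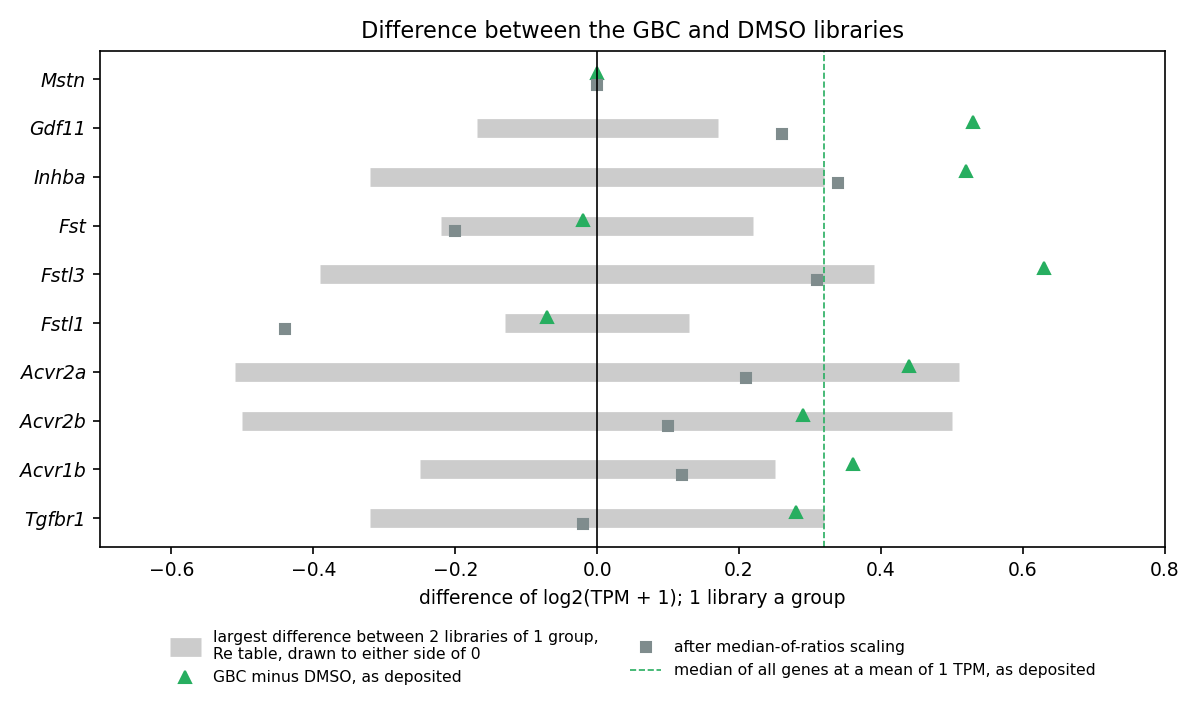
GBC minus DMSO for the 10 genes in log2(TPM + 1), as deposited (triangles) and after median-of-ratios scaling (squares), with 1 library a group. Grey bars show, for each gene, the largest difference between libraries of 1 group in the Re table, as deposited and not scaled. The dashed line shows the median of all genes, as deposited. As deposited Fstl3, at 0.63, is highest, after scaling Inhba, at 0.34, is, and Fstl1, at -0.07 and -0.44, is lowest in both.

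The antagonist share of ligand and antagonist transcripts was 68.2% in the DMSO and 65.4% in the GBC library of that table. With Fst as the only antagonist it was 24% and 14.7%. The ratio of Fst to Inhba was 1.45 and 0.651, from levels of about 1 TPM at which a small absolute change moves the ratio. In the pathway list 23 of 36 genes had a mean of at least 1 TPM, 22 higher and 1 lower in GBC, with a median of 0.491. Of all 10989 genes at that level 9755 were higher and 1211 lower, with a median of 0.320. After scaling 18 genes of the list were higher and 5 lower, with a median of 0.207, and 0 reached a difference of 1 either way. Of all 10963 genes at that level after scaling, 5648 were higher, the median was 0.011, and 214 reached that difference. Among the 6 genes of the list with the largest differences were Ltbp1 and Ltbp3, genes of proteins that store latent TGF-β in the matrix. They were at 8.69 and 17.9 TPM and at 10.2 and 20.2 TPM (DMSO, then GBC). These are differences of 0.97 and 0.92, or 0.62 and 0.57 after scaling. The other 4, Smurf1, Skil, a Smad corepressor gene, Acvr1, a BMP type I receptor gene, and Pmepa1, differed by 0.94, 0.77, 0.77 and 0.76. Cdkn1a was the gene of the list that was lower as deposited, at 22.4 and 17.2 TPM, a difference of -0.36.

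The DMSO libraries of the tables are set side by side only as a description, since the tables were normalised separately. Inhba was at 33.4 to 39.2 TPM in the Re table and 0.60 TPM in the GBC table, and Fst at 8.59 to 9.89 TPM and 0.87 TPM. Per 1000000 listed TPM, Inhba was 46.6 to 58.3 against 1.49, a ratio of 36.1, and Fst 12.3 to 15.4 against 2.16, a ratio of 6.34. The corresponding ratios were 3.88 for Gdf11, 3.07 for Fstl3, 2.1 for Fstl1, 2.03 for Acvr2a, 1.61 for Tgfbr1 and 1.37 for Acvr1b. Acvr2b went the other way, with a ratio of 0.349. Inhba had the highest ratio, while Fstl1 and Acvr2a were close to each other. For Acvr2b the level of the GBC table, 0.86 TPM, was also that of DMSO replicate 1 of the Re table. In the GBC table the order began with Fstl1, Fstl3 and Tgfbr1, and Inhba lay below all receptor genes in its DMSO library.

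Cell type markers also differed between the tables. The summed TPM of the 5 myoblast markers was 172 to 190 in the DMSO libraries of the Re table, 172 to 182 in its Re libraries, and 1.92 and 1.59 in the GBC table (DMSO, then GBC). The 6 fibroblast or mesenchymal progenitor markers summed to 208 to 301 in DMSO and 262 to 303 in Re, against 112 and 176 in the GBC table. All marker values here are in TPM as deposited, not per 1000000 listed TPM. Listed TPM added up to less in the GBC table (403442 and 479938), so the sums of the tables are not on the same scale. Members of the fibroblast or mesenchymal progenitor list split between the tables. Thy1, at 0.08 TPM or less in the Re table and at 23.75 and 22.11 TPM in the GBC table, Ly6a, at means of 13.2 (DMSO) and 14.4 (Re) against 51.52 and 58.45 TPM, and Pdgfra, at 1.85 to 3.07 against 5.85 and 9.84 TPM, were higher in the GBC table. Col3a1 was lower there, at 177.80 to 271.18 against 19.77 and 39.32 TPM. Col1a1 was at 12.91 to 20.03 against 10.94 and 46.64 TPM, and Dcn was at 0.57 TPM or less in all libraries. The 6 markers of differentiating muscle summed to 24.3 to 35.1 TPM in DMSO, 23.6 to 25.8 in Re, and 0.09 and 0.27 in the GBC table, with Acta1 the only one above 1 TPM. Macrophage and endothelial markers summed to 2.69 TPM or less in all libraries, and adipocyte markers to 12.5 TPM or less, with Pparg at 10.20 TPM or more in the Re table and 0.09 TPM or less in the GBC table. Their part in the levels of the axis was not tested.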

How the data were processed

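RNA sequencing values of 8 libraries were used, 6 in the Re table and 2 in the GBC table. The deposited values are log2(TPM + 1) per Ensembl gene, made by the authors, per the file headers and names; back-transformed they fell on multiples of 0.01 TPM within 0.0002. STAR, RSEM and the builds GRCh38 and GRCm39 come from the submitters' processing notes; versions, roles and settings were not given in the sources used here. Depth is unknown and limits precision in a way that cannot be stated. TPM recomputed from these values and their ratios were used for levels.

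Re and DMSO were compared with limma 3.58.1 in R 4.3.3 (lmFit, eBayes with trend, two-sided) on log2(TPM + 1), thus with a pseudocount of 1. The fit took the 11967 genes whose mean reached 1 TPM, Benjamini-Hochberg adjustment ran over all of them, and the threshold was 0.05. Differences on this scale understate the change of low genes. On simulated data over 11967 genes for this comparison, 75.7% of genes changed 2-fold in TPM + 1 were recovered. For genes changed 4-fold in TPM + 1 it was 96.3%. Both are means of 3 simulations. Smaller changes, such as the difference of 0.27 for Fst, were not simulated. Noise was drawn for each gene separately, without shifts shared by a library, so recovery under such shifts was not measured. For GBC a difference of 1 was the mark, with no test. Figures used Python 3.11.15 and matplotlib 3.10.9.

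The members and gene lists were chosen with earlier results of these data known. From the pathway list the 6 genes with the smallest p (Re) or the largest difference (GBC) were named, with any past the threshold; Smad2, Smad3, Smad4, Pmepa1 in Re, Cdkn1a, Tgfb2, Inhbb, Wfikkn2, Tll2 and Acvr1c were added after their values were seen. For likeness, the 3 genes with the highest r at a mean of at least 5 TPM and an SD of at least 0.1 were named. Alternatives covered pseudocounts, filters, scalings, variance models, left-out libraries and a replicate block.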

Additional observations from a re-analysis of the deposited data

How the results depend on the processing

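No member and no pathway gene was called in Re against DMSO under any alternative run, and 0 of all genes were, except that leaving out 1 library called 0 to 7 genes, the lowest without DMSO replicate 3 and the highest without Re replicate 3. Fst kept its sign throughout, at 0.15 to 0.31, with adjusted p of 0.367 to 0.961 in limma, and Inhba did too, at -0.25 to -0.07. Signs reversed for Gdf11 (-0.03 after median-of-ratios scaling and after quantile normalization, -0.01 without mitochondrially encoded genes), Fstl3 (-0.04, -0.04, -0.02), Fstl1 (-0.04 after median-of-ratios scaling, -0.02 without mitochondrially encoded genes), Acvr2a (-0.08, -0.08, -0.07) and Tgfbr1 (-0.05, -0.06, -0.03). With libraries rescaled to the same listed sum, Acvr2a was at -0.04 and Tgfbr1 at -0.01. Leaving out 1 library gave -0.03 to 0.17 for Fstl3, -0.13 to 0.12 for Acvr2a and -0.04 to 0.12 for Tgfbr1; without DMSO replicate 2 all 3 were below 0, and without Re replicate 1 Acvr2a was at -0.05. The cause was not tested.

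In the GBC pair 0 members reached a difference of 1 under each alternative. In the pathway list the count was 0 but 4 with a pseudocount of 0.1, 1 with 0.5 and 1 (Ltbp4) without mitochondrially encoded genes. The share of all genes past that mark under those settings is not given here, so these counts do not set the pathway apart. The cause was not tested. The GBC minus DMSO share of the antagonists, -2.77 percentage points, was -9.23 with Fst as the only antagonist and -19.7 with Inhba also as the only ligand; the Re minus DMSO share ran from 2.38 to 5.67 points when 1 library was left out. A fit with the replicate number as a block called 0 genes and changed no call; Fst was at 0.27 with an unadjusted p of 0.0616. Same-numbered libraries correlated at 0.163, 0.077 and 0.017 in their deviations from the group means. Pairs with unlike numbers ran from -0.172 to 0.094, the latter for DMSO replicate 2 with Re replicate 3. With so few libraries, these values cannot settle whether the numbers pair them. Re replicate numbers are those of the sample titles, and the sample descriptions number these libraries otherwise. TPM without depth limits what can be said of Mstn, Acvr2b and the low GBC table values.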
